A study of Mus musculus with 68 samples.

Results

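The 26S proteasome is built from products of the Psm genes, and their transcripts were followed here through red cell formation in mouse bone marrow. Gene symbols of the form Psma to Psmg followed by a digit were taken from the deposited count tables, and pseudogene symbols were left out. The rule found 50 symbols among 24059 in the tables. Psmc3ip, a recombination partner of the Psmc3 product named after it and no proteasome subunit, matches the pattern as well and is reported apart. The other 49 genes were grouped by letter. Core genes (Psma and Psmb) numbered 19 and regulatory genes (Psmc and Psmd) 20. There were 5 activators (Psme) and 5 genes of assembly and inhibition (Psmf1 and Psmg1 to Psmg4). The regulatory group so drawn follows the letters and also holds assembly chaperones, Psmd5, Psmd9 and Psmd10. The rule reads gene symbols only, but it was chosen with earlier results of these data known.

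The libraries came from 2 series of total RNA sequencing of sorted bone marrow cells. The stage series held 38 libraries: 3 BFU-E and 5 CFU-E (erythroid progenitors), 7 ERY-I (proerythroblasts), 4 ERY-II (basophilic erythroblasts), 4 ERY-III (polychromatic erythroblasts), 4 ERY-IV (orthochromatic erythroblasts), 7 ERY-V (reticulocytes) and 4 ERY-VI (red cells). The knockout series held 30 libraries, 3 for each of WT and GS-KO in 5 gates: BFU-E, CFU-E, the combined early gate ERY-I-II, a gate labelled ERY-III-VI (described by the submitters as polychromatic and orthochromatic erythroblasts) and ERY-V-VI. GS is not spelled out in the labels and is read here as glutamine synthetase, which Glul encodes. The labels give no strain, age, sex, promoter or Cre line, and do not say whether a deletion was confined to erythroid cells. They also do not say whether libraries of a group came from separate mice, so p-values measure only how far libraries of a group differ, which may be a technical spread.

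The proteasome degrades proteins tagged with ubiquitin. Its core is a barrel of alpha and beta subunits in which the products of Psmb5, Psmb6 and Psmb7 cut peptide bonds. Immune and interferon-exposed cells replace these with Psmb8, Psmb9 and Psmb10, which gives the immunoproteasome. The regulatory particle recognises ubiquitin, removes it and unfolds the protein with a ring of Psmc ATPases. Activators open the core without ubiquitin: Psme1 with Psme2 in the cytoplasm (PA28 alpha and beta), Psme3 in the nucleus (PA28 gamma) and Psme4 (PA200). Psmg1 to Psmg4 are chaperones that build the alpha ring, and Psmf1 (PI31) binds the core and was first described as its inhibitor. Maturing red cells discard nucleus, organelles and most of their proteins, and the ubiquitin system is known to take part in that clearance.

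To show the range of behaviours described, the 200 bases before their RefSeq start sites (GRCm38.p6, read 5′ to 3′ on the gene's strand) are printed for 4 members. Psme3 had the largest share of member counts in late cells, Psmf1 the inhibitor highest in erythroblasts, Psmb5 a standard catalytic subunit and Psmg1 a chaperone whose transcript was nearly lost. Capitals mark matches to the motifs searched.
Psme3 (chr11:101316013-101316212, plus strand): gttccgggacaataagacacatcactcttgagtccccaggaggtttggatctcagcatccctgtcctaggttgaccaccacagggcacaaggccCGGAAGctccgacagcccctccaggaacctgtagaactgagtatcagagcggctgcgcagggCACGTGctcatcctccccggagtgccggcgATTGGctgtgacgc
Psmf1 (chr2:151741311-151741510, minus strand): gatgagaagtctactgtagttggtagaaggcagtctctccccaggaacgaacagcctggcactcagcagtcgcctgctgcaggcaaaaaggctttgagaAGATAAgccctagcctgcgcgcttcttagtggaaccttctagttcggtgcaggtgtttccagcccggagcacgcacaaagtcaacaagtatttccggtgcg
Psmb5 (chr14:54617996-54618195, minus strand): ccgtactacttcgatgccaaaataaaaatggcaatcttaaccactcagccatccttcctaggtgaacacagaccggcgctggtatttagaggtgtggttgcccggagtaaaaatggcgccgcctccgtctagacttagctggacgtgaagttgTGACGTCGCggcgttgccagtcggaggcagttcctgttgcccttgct
Psmg1 (chr16:95990961-95991160, minus strand): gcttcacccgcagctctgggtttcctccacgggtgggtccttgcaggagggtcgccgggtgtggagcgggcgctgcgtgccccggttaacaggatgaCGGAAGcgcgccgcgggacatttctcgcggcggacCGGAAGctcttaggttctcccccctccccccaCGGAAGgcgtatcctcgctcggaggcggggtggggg

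The motifs were searched on both strands in the 250 bases before the start. The Psme3 window held an ETS match (CGGAAG) at position -106, an E-box (CACGTG) at -44 and, on the other strand, a CCAAT box at -14. The Psmf1 window held a GATA match (AGATAA) at -101. Psmb5 had an antioxidant response element match (TGACNNNGC) at -47, the motif of the NRF factors that drive proteasome genes after proteasome inhibition. Psmg1 had 3 ETS matches, at -103, -68 and -36. Promoters of 41 members were in the RefSeq table. The ETS letters occurred in 19 of these 41, or 46.3%, against 15.3% of the 27025 genes with a promoter. The antioxidant response element occurred in 5 members, 12.2% against 11.5% of all genes. GATA letters occurred in 2 members, 4.88% against 11.4%. The CCAAT box occurred in 14 members, 34.1% against 37.5%, the E-box in 4, 9.76% against 6.86%, and the interferon-stimulated response element in 3, 7.32% against 3.46%. These are matches of letters and say nothing of factor binding.

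Stage libraries held 1630863 to 11472763 counts and knockout libraries 3131142 to 15806844, of which the 49 members took 3785 to 76870 and 13021 to 114715. Between 28 and 49 members had a count in a stage library and between 45 and 49 in a knockout library. Libraries of the stage series differed in the sex of the cells: all 3 of BFU-E, 3 of CFU-E, 3 of ERY-I and 3 of ERY-V carried Y-linked transcripts, and the others carried Xist. Pairs of libraries with Y transcripts within a group differed little (chi-square per degree of freedom 1.29 to 8.59 over both series), and pairs with Xist differed more (7.63 to 98.1). BFU-E held Y-positive libraries only, and ERY-II, ERY-III, ERY-IV and ERY-VI held Xist-positive libraries only, so sex and stage cannot be told apart in steps between these. The summed level of 9 neutrophil marker genes passed 1000 CPM (counts per 1000000 counts of a library) in ERY-I replicates 1, 2, 3 and 5, ERY-II replicate 2, ERY-III replicate 2, ERY-V replicates 1, 2, 3 and 5, and all 15 GS-KO libraries. All 11 erythroid markers had a count in every library outside ERY-VI, and 10 had one in every ERY-VI library. The 6 progenitor markers summed to 1402 to 1430 CPM in BFU-E and 0 to 18.5 in ERY-VI. In a mixed population fewer cells of a type and less RNA per cell cannot be told apart.

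Most members were highest at the CFU-E stage and lowest in red cells. Of 49 members, 37 had their highest mean CPM in CFU-E, 6 in BFU-E (Psma8, Psmb8, Psmb9, Psmb10, Psme1 and Psmg4), 3 in ERY-I (Psmd9, Psme2b and Psme4), 1 in ERY-III (Psmf1) and 2 in ERY-V (Psme3 and the thymus-specific Psmb11, which had no count in 56 of the 68 libraries). The lowest mean fell in ERY-VI for 43 members. How many of all genes were highest in CFU-E or lowest in ERY-VI was not counted. Scaled to library totals, the median log2 fold change of all genes tested from ERY-V to ERY-VI was -2.24. A lower CPM there was thus common to most genes. The summed level of the members was 5792 to 5970 CPM in BFU-E, 7319 to 9430 in CFU-E and 5056 to 6865 in proerythroblasts. The 12 libraries of ERY-II to ERY-IV ran from 3209 to 3985, reticulocytes (ERY-V) from 2860 to 4519 and red cells (ERY-VI) from 2008 to 2808. The CFU-E libraries lay above all others in this sum, and the ERY-VI libraries below all other stages. Globin counts took a mean of 36.3% of ERY-V and 64.0% of ERY-VI libraries. With globin counts removed from the total, the mean summed level was 5860 CPM in BFU-E, 5943 in reticulocytes and 6596 in red cells.

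The make-up of the pool changed through the stages. Core genes supplied a mean of 26.5% of member counts in BFU-E and 29.5% in CFU-E, then 13.7% in ERY-II, 4.82% in reticulocytes and 1.35% in red cells. Regulatory genes supplied 53.3% in BFU-E, 56.0% in CFU-E, 19.3% in reticulocytes and 14.1% in red cells. Psme3 alone supplied 5.93% in BFU-E, 4.57% in CFU-E, 6.94% in proerythroblasts and 29.8% in ERY-II. It supplied 21.0% in ERY-III, where the core share was 16.8%, and 36.1% in ERY-IV, then 63.3% in ERY-V (52.4% to 68.8% over 7 libraries) and 76.4% in ERY-VI (67.5% to 84.3% over 4 libraries). The stacked bars of pool share show these shares by group.

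**Figure D1:**
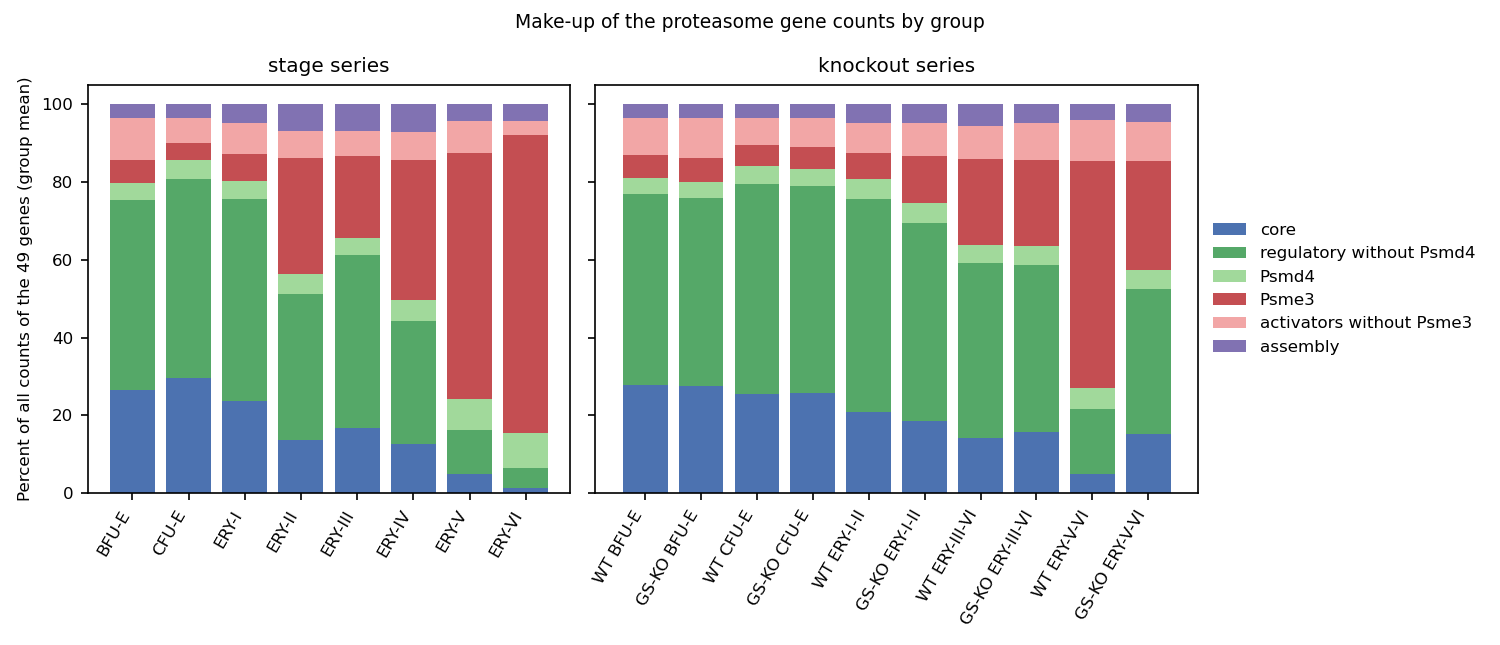
Share of the counts of the 49 members (percent, mean over libraries) taken by core genes, regulatory genes without Psmd4, Psmd4, Psme3, the other activators and assembly genes in each group of the stage series and the knockout series. Psme3 takes 5.93% in BFU-E, 4.57% in CFU-E, 29.8% in ERY-II, 21.0% in ERY-III and 76.4% in ERY-VI, and takes 58.5% in WT ERY-V-VI against 28.1% in GS-KO ERY-V-VI.

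Neighbouring stages were compared with edgeR's quasi-likelihood test on all genes that passed the count filter, with TMM scaling and Benjamini-Hochberg adjustment, and a gene is said to have risen or fallen at an adjusted p under 0.05. TMM sets the bulk of genes to no change, so a rise is relative to other genes, and scaling to library totals gives the change in CPM. Neighbouring comparisons share a group, and are given side by side. From BFU-E to CFU-E 34 of 48 tested members rose and 2 fell, where 18.2% of all 10807 genes tested rose and 19.1% fell. The members' median log2 fold change was 0.69, against -0.01 over all genes. Of the regulatory genes 19 of 20 rose, 12 core genes rose, and the 2 members that fell were Psmb8 and Psme1. Library totals gave 28 higher and 2 lower, with a median of all genes of -0.14. With the Y-positive libraries alone 45 members passed, 40 of them higher. Here and below, the share of all genes called was taken for the main count of a step only, not for alternatives. The call count fell to 19, 22 or 18 without BFU-E replicate 1, 2 or 3, and to 0 when the Y-positive triplicates were summed to 1 library each.

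From CFU-E to ERY-I 3 members rose (Psme3, Psme4 and Psmf1) and 13 fell, where 25.4% of all genes rose and 20.9% fell. The members' median was -0.20 against 0.05 over all genes. The fallers comprised 5 core genes, 3 regulatory genes, Psme2 and all 4 alpha ring chaperones. Same-numbered libraries deviated together, but the numbers coincide with sex here, so pairing and sex cannot be told apart. With a replicate block, which left out ERY-I replicates 6 and 7, 2 rose and 28 fell. In the Y-positive libraries alone 3 rose and 39 fell, and in the Xist-positive ones 4 rose and 17 fell. Without the share of all genes called in those fits, these counts cannot be read as particular to the members. Without the libraries rich in neutrophil markers 6 rose and 10 fell. Library totals gave 2 higher and 30 lower, with a median of all genes of -0.30.

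From ERY-I to ERY-II 8 members rose and 10 fell, where 20.2% of all genes rose and 25.1% fell, and the medians were -0.03 and -0.35. The risers were Psmc5, Psmd4, Psmd5, Psmd10, Psme2b, Psme3, Psme4 and Psmf1. The fallers were Psma4, Psma7, Psmb2, Psmb3, Psmd3, Psme1 and the 4 alpha ring chaperones. Of the 8 risers 6 (all but Psme3 and Psmf1) had a lower mean CPM in ERY-II than in ERY-I. Without the libraries rich in neutrophil markers 6 rose and 9 fell. Scaled to library totals in place of TMM, 1 member rose and 40 fell, and the median of all genes was -1.68.

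Few members passed the test at the later steps. From ERY-II to ERY-III none of 41 tested members passed edgeR's test, where 0.185% of all genes rose and 0% fell. At an unadjusted p under 0.05 edgeR gave 2 higher and 0 lower. DESeq2 also called none, and the replicate block, which paired these libraries, called 1 in each direction. From ERY-III to ERY-IV Psme3 rose and no member fell, where 10.3% of all genes rose and 3.29% fell. The block, which paired these libraries too, called 6 members higher. The call of Psme3 at this step was lost without ERY-III replicate 1, 2 or 3 or ERY-IV replicate 3 or 4, and without the libraries rich in neutrophil markers. Library totals gave 1 higher and 4 lower, with a median of all genes of -0.63.

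From ERY-IV to ERY-V Psmd4, Psme1 and Psme3 rose and Psmd12 fell, where 6.49% of all genes rose and 2.33% fell. The members' median log2 fold change was -0.49 against 0.06 over all genes, though few single members passed. The number of members called ranged from 1 (without ERY-IV replicate 1, 2 or 4) or 2 (without ERY-IV replicate 3) to 7 (without ERY-V replicate 6 or 7). Without the libraries rich in neutrophil markers 6 rose and 2 fell, and library totals gave 1 higher and 6 lower (median of all genes -0.72). From ERY-V to ERY-VI 1 of 37 tested members rose (Psme3) and 3 fell (Psma3, Psmc1 and Psmd6), where 3.32% of all genes rose and 4.51% fell. These 3 had 0, 2 and 5 counts over the 4 ERY-VI libraries, so no fold is given for them. No member passed at that step without ERY-VI replicate 1, 1 passed without ERY-V replicate 5, and 2 passed without ERY-V replicate 1, 2 or 3 or ERY-VI replicate 2 or 3. None passed in the Xist-positive libraries alone or without the libraries rich in neutrophil markers. With library totals 0 rose and 15 fell (median of all genes -2.24), and the value of Psme3 was -0.39.

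**Figure D2:**
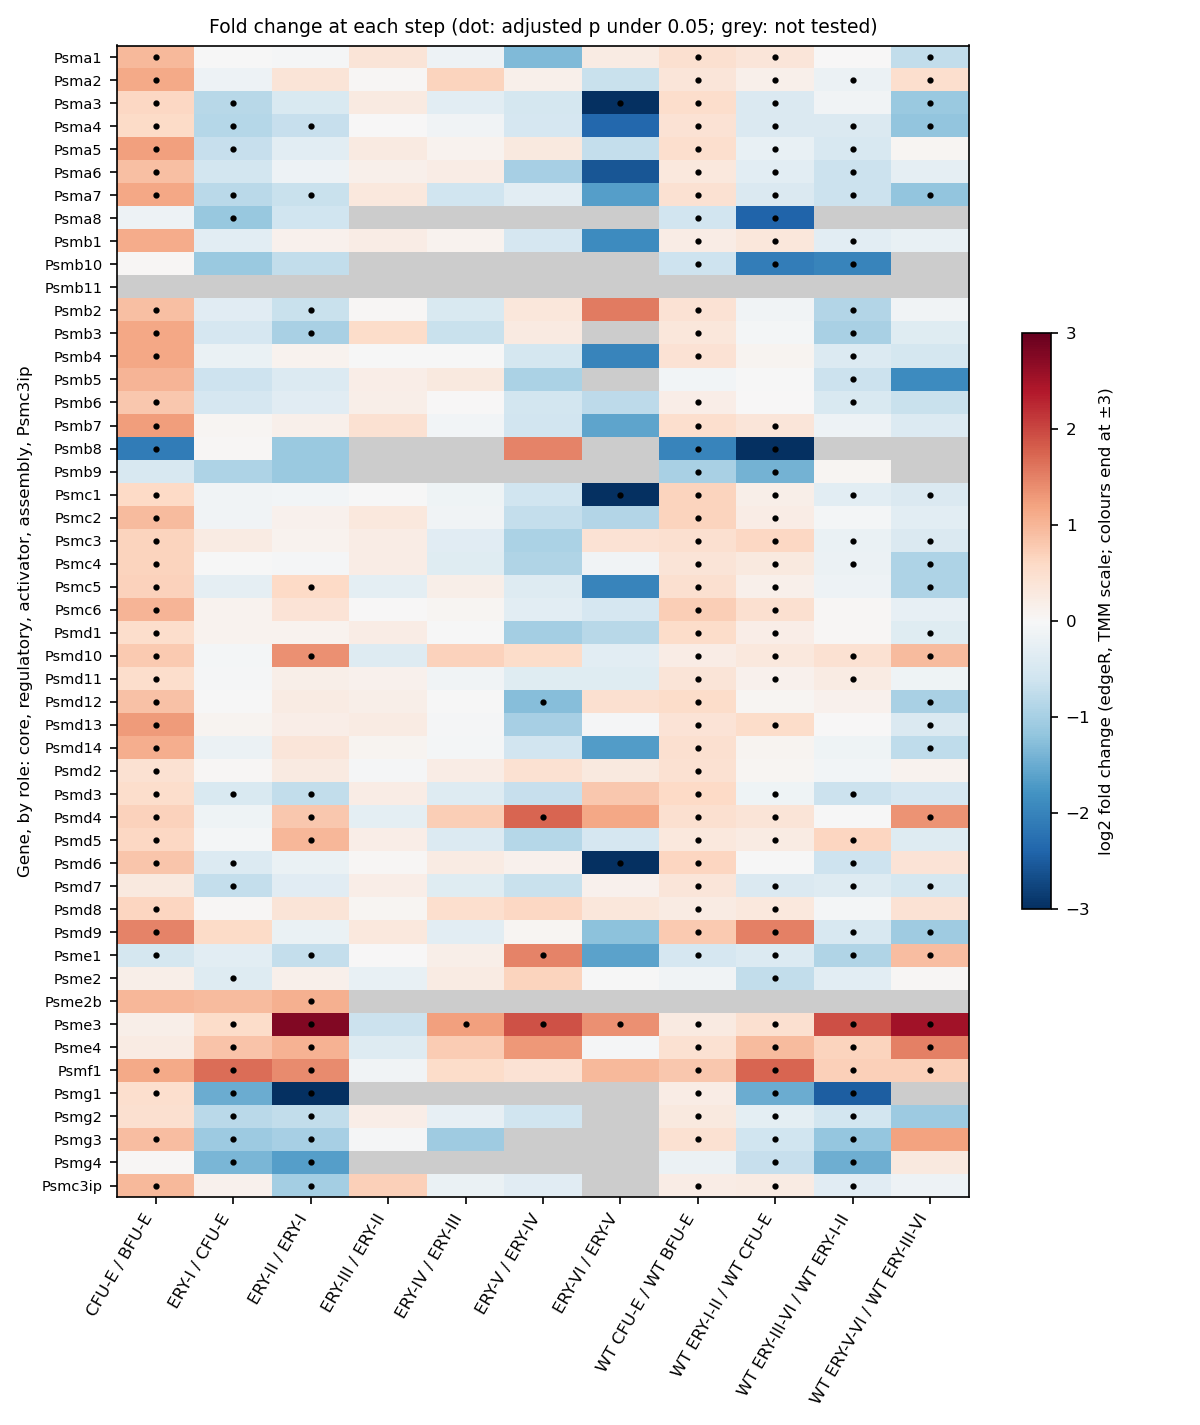
Log2 fold changes of the members (rows, ordered by role) at the 7 steps of the stage series and the 4 steps of the WT knockout-series libraries (columns), on a colour scale that ends at 3 in each direction. Dots mark an adjusted p under 0.05, and grey marks genes not tested. The column of BFU-E to CFU-E is nearly all positive, and the Psme3 row is positive at every step but ERY-II to ERY-III. The step from ERY-V to ERY-VI is -0.39 for Psme3 with library totals.

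The WT libraries of the knockout series allowed the first step to be read again in other libraries. From BFU-E to CFU-E 39 of 47 members rose and 5 fell, where 34.5% of all 10826 genes rose and 36% fell. All 20 regulatory genes rose. Of 47 members tested at this step in both series, 36 passed in both, 34 higher and 2 lower in each. The share of all genes that passed in both was not counted, so this is not shown to be particular to the members. From CFU-E to ERY-I-II 21 rose and 17 fell, where 39.9% of all genes rose and 41.9% fell. From ERY-I-II to ERY-III-VI 6 rose and 24 fell, where 35.3% rose and 38.1% fell. From ERY-III-VI to ERY-V-VI 7 rose and 14 fell, where 18.4% rose and 12.9% fell. The shares called among all genes were large in this series, so a count of members near them is no result about proteasome genes. Scaled to library totals the last 3 steps read 5 against 36, 1 against 39 and 3 against 35, with medians of all genes of -0.47, -0.78 and -1.16. Mean CPM moved down for 14 of the 21, 5 of the 6 and 4 of the 7 members called higher at those steps.

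Of the 18 core genes tested 12 rose and 1 fell into CFU-E, where 18.2% of all genes rose and 19.1% fell. Into ERY-I 0 rose and 5 fell, the latter near the 20.9% of all genes that fell. Psma1, an alpha ring subunit, read 88.3, 107 and 91.0 CPM in BFU-E, 133 to 245 (median 145) in CFU-E and 93.3 to 168 (median 134) in ERY-I by library. It read 36.8 to 55.4 in basophilic, 61.6 to 89.7 in polychromatic and 31.6 to 64.9 in orthochromatic erythroblasts. Reticulocytes read 0.337 to 26.8 and red cells 0 to 5.89. The BFU-E and CFU-E libraries did not overlap, and the log2 fold change was 0.98 ± 0.24 (SE; adjusted p = 0.0135). In every ERY-V library Psma1 lay below every ERY-IV library.

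Of the standard catalytic subunits Psmb6 and Psmb7 passed into CFU-E. Psmb6 averaged 91.7 ± 2.02 CPM (SD, n = 3) in BFU-E, 145 ± 43.5 (n = 5) in CFU-E, 77.6 ± 12.8 (n = 7) in ERY-I, 24.8 ± 7.62 (n = 4) in ERY-II and 8.84 ± 6.20 (n = 7) in ERY-V. It rose from BFU-E to CFU-E (0.82 ± 0.27, adjusted p = 0.0393). Psmb7 rose at the same step (1.25 ± 0.36, adjusted p = 0.0243), a call lost without BFU-E replicate 1, 2 or 3. Psmb5 read 18.0, 18.0 and 16.9 CPM in BFU-E, 21.7, 25.1 and 19.6 in Y-positive CFU-E and 48.3 and 46.6 in Xist-positive CFU-E. The Xist-positive CFU-E libraries lay above the Y-positive ones, and Psmb5 did not pass (1.02 ± 0.38, adjusted p = 0.0579). Psma3, another alpha subunit, fell from a mean of 151 CPM in CFU-E to 66.0 in ERY-I (-0.84 ± 0.13) and had no count in the 4 ERY-VI libraries. A total of 3 counts over that group would have been 0.336 CPM.

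Regulatory genes rose into CFU-E, 19 of 20 in the stage series and 20 of 20 in WT, where 18.2% and 34.5% of all genes rose. Psmd1, the scaffold that binds ubiquitin receptors, read 407, 399 and 396 CPM in BFU-E, and 503 to 544 in CFU-E. It read 330 to 511 (median 443) in proerythroblasts, then 147 to 240, 193 to 275 and 129 to 198 in the basophilic, polychromatic and orthochromatic erythroblasts. It read 18.8 to 61.6 in reticulocytes and 1.42 to 17.8 in red cells. The fold change into CFU-E was 0.53 ± 0.10, and the groups did not overlap. In the WT libraries it was 0.54 ± 0.03. Psmc3, an ATPase of the unfolding ring, averaged 233 ± 9.60 CPM (SD, n = 3) in BFU-E, 337 ± 39.7 (n = 5) in CFU-E, 128 ± 28.4 (n = 4) in ERY-II and 10.6 ± 7.19 (n = 4) in ERY-VI. Psmc3 exons overlap those of Slc39a13, and Psmd13 exons those of Sirt3. Whether counting used strand is not given in the sources used here.

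Psmd9, a chaperone of the ATPase ring, had the highest fold change of the regulatory group into CFU-E. It read 26.9, 27.5 and 28.8 CPM in BFU-E, 54.7 to 60.8 in Y-positive CFU-E, and 85.9 and 93.6 in Xist-positive CFU-E. No CFU-E library lay below a BFU-E library, and the fold change was 1.49 ± 0.25 (adjusted p = 0.00235). In the WT libraries Psmd9 rose again from CFU-E (53.0 ± 2.48 CPM, SD, n = 3) to ERY-I-II (113 ± 5.03), by 1.52 ± 0.06. It then fell in ERY-III-VI (-0.49 ± 0.07) and ERY-V-VI (-1.06 ± 0.27).

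Psmd4, the ubiquitin receptor also known as Rpn10, left the regulatory group late. Its level per kilobase of exon was 92.5 CPM in BFU-E, 134 in CFU-E, 60.6 in ERY-II, 61.3 in ERY-IV, 100 in reticulocytes and 75.0 in red cells. Its CPM read 151 to 191 in ERY-IV, 182 to 303 in 6 ERY-V libraries and 462 in ERY-V replicate 7, and 172 to 243 in ERY-VI. The ERY-IV and ERY-V ranges overlapped. The fold change of 1.75 ± 0.47 (adjusted p = 0.0303) was no longer called without ERY-IV replicate 1, 2 or 4, or under library totals (0.71). In WT libraries Psmd4 rose from ERY-III-VI to ERY-V-VI by 1.35 ± 0.07. By contrast Psmd1 fell at that step (-0.37 ± 0.07) and Psmd14, the enzyme that cuts off ubiquitin, fell by 0.77 on the log2 scale. Psmd7, the highest regulatory gene per kilobase in BFU-E (164 CPM), averaged 15.3 ± 11.7 CPM (SD, n = 7) in ERY-V.

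**Figure D3:**
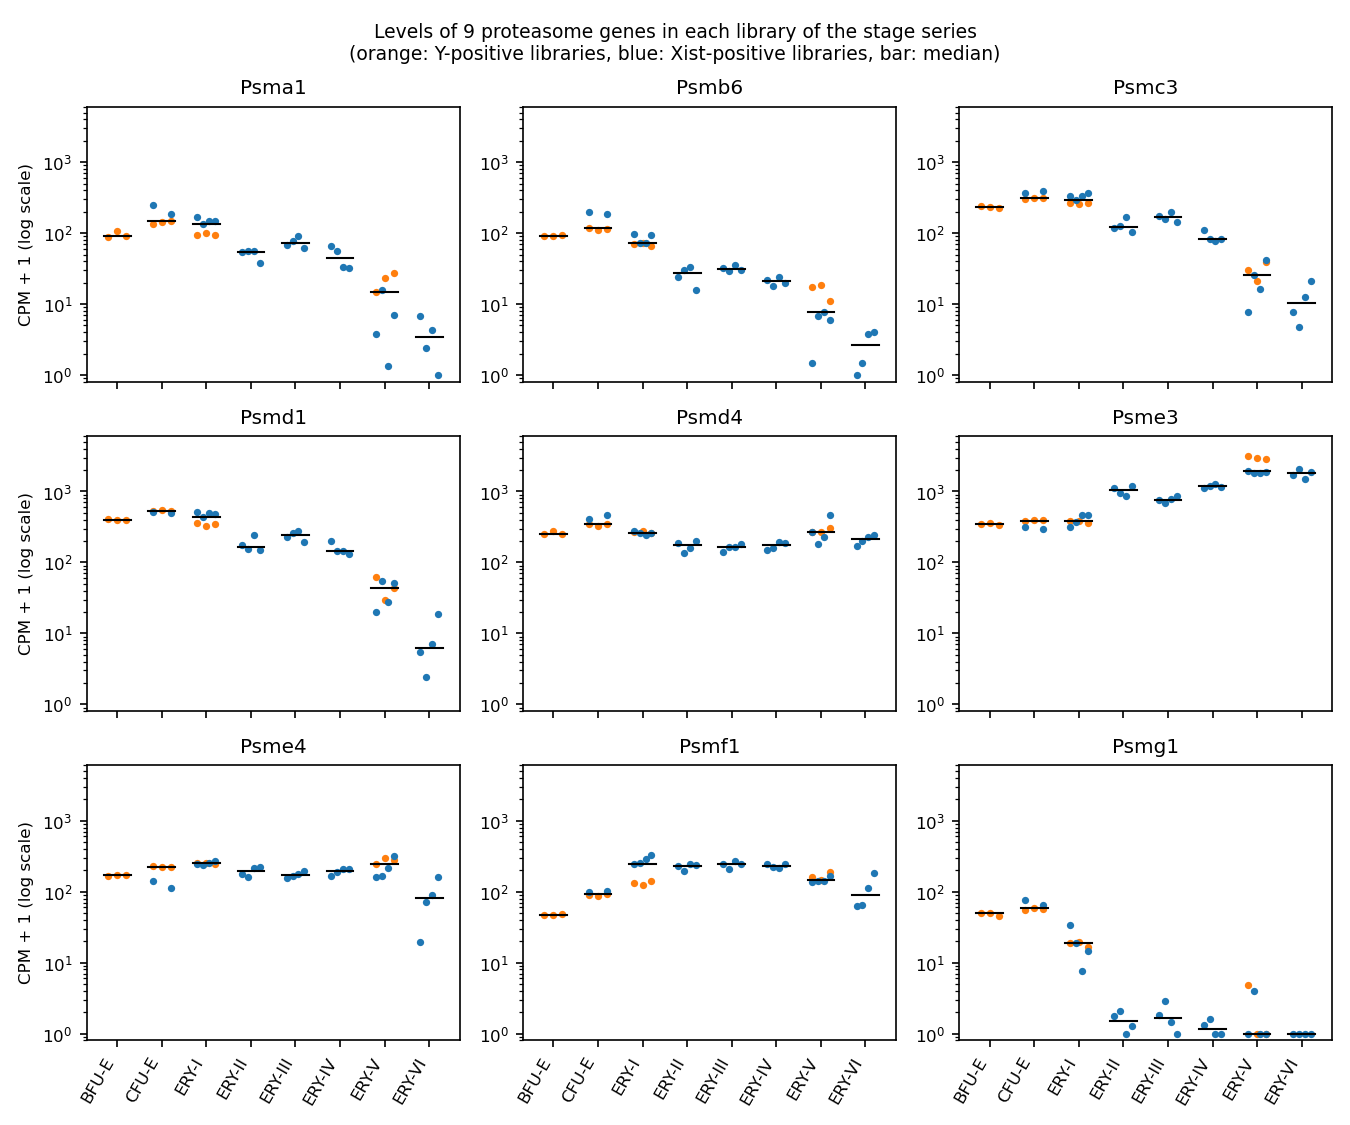
CPM plus 1 (log axis) of 9 members by stage: Psma1, Psmb6, Psmc3, Psmd1, Psmd4, Psme3, Psme4, Psmf1 and Psmg1. Each point is a library, orange with Y transcripts and blue with Xist, and bars are medians. Psma1, Psmb6, Psmc3 and Psmd1 fall after ERY-I, Psme3 is highest in ERY-V and ERY-VI, the Psmd4 mean is highest in CFU-E and lowest in ERY-III, and Psmg1 is near 0 from ERY-II on.

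Psme3, the nuclear activator, had its highest levels in reticulocytes and red cells. It read 348, 363 and 333 CPM in BFU-E, 386, 401 and 400 in Y-positive CFU-E, and 319 and 295 in Xist-positive CFU-E. ERY-I libraries lay between 314 and 472 with a median of 380. ERY-II libraries read 1114, 958, 862 and 1190, all above every ERY-I library. ERY-III read 745, 681, 788 and 855, and ERY-IV read 1105, 1201, 1258 and 1163. ERY-V read 3110, 2945 and 2825 in the Y-positive libraries and 1953, 1816, 1806 and 1877 in the Xist-positive ones. ERY-VI read 1692, 2088, 1505 and 1895, which overlapped the Xist-positive ERY-V libraries.

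Per kilobase the mean Psme3 level was 118 CPM in BFU-E, 122 in CFU-E and 133 in proerythroblasts. It was 350, 260 and 401 in the basophilic, polychromatic and orthochromatic erythroblasts, 791 in reticulocytes and 609 in red cells. BFU-E, CFU-E and ERY-I overlapped. The fold change was 2.79 ± 0.29 (adjusted p = 5.24e-05) from ERY-I to ERY-II and 1.91 ± 0.36 (adjusted p = 0.00661) from ERY-IV to ERY-V, both called whichever library was left out. Under library totals these steps read 1.39 and 0.98 and passed. The rise into ERY-I (0.55 ± 0.20, adjusted p = 0.0408) was 0.04 in the Y-positive libraries and 0.88 in the Xist-positive ones. The fold change from ERY-II to ERY-III was -0.65 ± 0.31 (adjusted p = 0.422). In WT libraries Psme3 rose at each of the 4 steps, by 0.26 ± 0.03, 0.47 ± 0.03, 1.92 ± 0.03 and 2.52 ± 0.03.

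Psme4, which caps the core in nuclei and during sperm formation, was lowest in red cells. It averaged 168 ± 2.60 CPM (SD, n = 3) in BFU-E, 250 ± 10.4 (n = 7) in ERY-I, 190 ± 19.4 (n = 4) in ERY-IV, 240 ± 63.6 (n = 7) in ERY-V and 84.8 ± 59.4 (n = 4) in ERY-VI. CFU-E libraries split into 221 to 227 CPM with Y transcripts and 139 and 111 with Xist. Psme4 rose into ERY-I (0.85 ± 0.20) and ERY-II (1.05 ± 0.25), the latter being -0.39 under library totals. In WT libraries it rose at all 4 steps, by 0.47, 0.95, 0.67 and 1.51, of which the third was -0.04 under library totals.

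Psme1, partner of Psme2 in the interferon-inducible activator, fell into CFU-E. It read 405, 399 and 407 CPM in BFU-E and 230 to 261 in CFU-E, with no overlap (-0.54 ± 0.09, adjusted p = 0.00248). It was the highest activator per kilobase in BFU-E, at 183 CPM. It fell again from ERY-I (160 ± 47.9, SD, n = 7) to ERY-II (38.3 ± 14.9, n = 4), by 0.71 on the log2 scale. From ERY-IV to ERY-V it rose (1.49 ± 0.34, adjusted p = 0.016) while its level went from 33.2 ± 13.6 (n = 4) to 46.5 ± 14.2 CPM (n = 7). That call was lost without ERY-IV replicate 1, 2, 3 or 4. In WT libraries Psme1 rose from ERY-III-VI to ERY-V-VI by 0.93 ± 0.22, a value of -0.23 under library totals. Psme2 averaged 54.3 ± 2.48 CPM (n = 3) in BFU-E and 55.8 ± 6.83 (n = 5) in CFU-E, and did not pass at that step (0.18 ± 0.16, adjusted p = 0.374).

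Over all libraries of a stage Psmf1 had its highest mean in ERY-III, at 241 CPM. It read 46.5, 45.8 and 47.5 CPM in BFU-E, 85.2 to 101.6 in CFU-E and 123 to 141 in Y-positive ERY-I. In Xist-positive ERY-I it read 247 to 332, apart from the Y-positive libraries and above the mean of ERY-III, which held Xist-positive libraries only. It then read 195 to 245, 207 to 272 and 215 to 244 in the basophilic, polychromatic and orthochromatic erythroblasts, 136 to 189 in reticulocytes and 62.1 to 183 in red cells. ERY-II to ERY-IV overlapped. The rises were 1.15 ± 0.13 into CFU-E, 1.67 ± 0.35 into ERY-I (adjusted p = 0.0021) and 1.41 ± 0.39 into ERY-II (adjusted p = 0.0125), the last lost without ERY-II replicate 4. In WT libraries it rose by 0.81 ± 0.06 and 1.75 ± 0.04 at the first steps. Its rise of 0.71 into ERY-III-VI was -0.0037 under library totals.

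All 4 alpha ring chaperones (Psmg1 to Psmg4) fell from CFU-E to ERY-I and again to ERY-II, where 20.9% and 25.1% of all genes fell. Psmg1 read 49.3, 48.8 and 45.1 CPM in BFU-E, 54.5 to 76.4 in CFU-E and 6.62 to 33.2 in ERY-I. In ERY-II it had 6 counts over 4 libraries, and the highest ERY-II library stood at 1.10 CPM. All 4 ERY-VI libraries were at 0. The fold change was -1.48 ± 0.25 (adjusted p = 0.00054) into ERY-I, and the drop into ERY-II rests on those 6 counts. Psmg4 averaged 41.6 ± 4.86 CPM (SD, n = 3) in BFU-E, 38.4 ± 15.7 (n = 5) in CFU-E, 11.5 ± 2.55 (n = 7) in ERY-I and 1.61 ± 1.13 (n = 4) in ERY-II. In WT libraries all 4 fell from CFU-E to ERY-I-II and again to ERY-III-VI, where 41.9% and 38.1% of all genes fell. Psmg1 fell by 1.49 and then 2.46 on the log2 scale.

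The immunoproteasome subunits were highest in BFU-E. Psmb8 read 149, 169 and 155 CPM in BFU-E and 17.4 to 42.9 in CFU-E, with no overlap (-2.10 ± 0.22, adjusted p = 0.000239). In WT libraries it fell by 1.98 ± 0.05 into CFU-E and from 39.7 to 1.02 CPM into ERY-I-II (-4.85 ± 0.19, adjusted p = 1.11e-24). Psmb9 fell into CFU-E in WT (-0.97 ± 0.11) but did not pass in the stage series (-0.47 ± 0.45, adjusted p = 0.421). Psmb10 fell by 0.62 on the log2 scale in WT and read 0.03 ± 0.36 in the stage series. Psmb9 exons overlap those of Tap1 on the opposite strand.

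Psmb8, Psmb9 and Psmb10 together held 54.4% to 55.5% of the counts of the 6 catalytic genes in BFU-E and 18.2% to 23.0% in CFU-E. In ERY-I the share was 35.8% to 37.9% in the Y-positive libraries, where the 9 neutrophil markers summed to 13619 to 14004 CPM. It was 1.56% to 14.5% in the Xist-positive libraries, where they summed to 0.409 to 1260 CPM. The Psmb8 step from CFU-E to ERY-I was 0.03 ± 0.95 over all libraries, 0.88 in the Y-positive libraries, -2.15 in the Xist-positive ones and -3.38 without those rich in neutrophil markers. The part of neutrophil RNA in the Psmb8 level was not tested. The share rests on 44 to 257 catalytic counts per library in ERY-V and 7 to 23 in ERY-VI, and its exact 95% intervals, which cover counting error only, are wide.

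**Figure D4:**
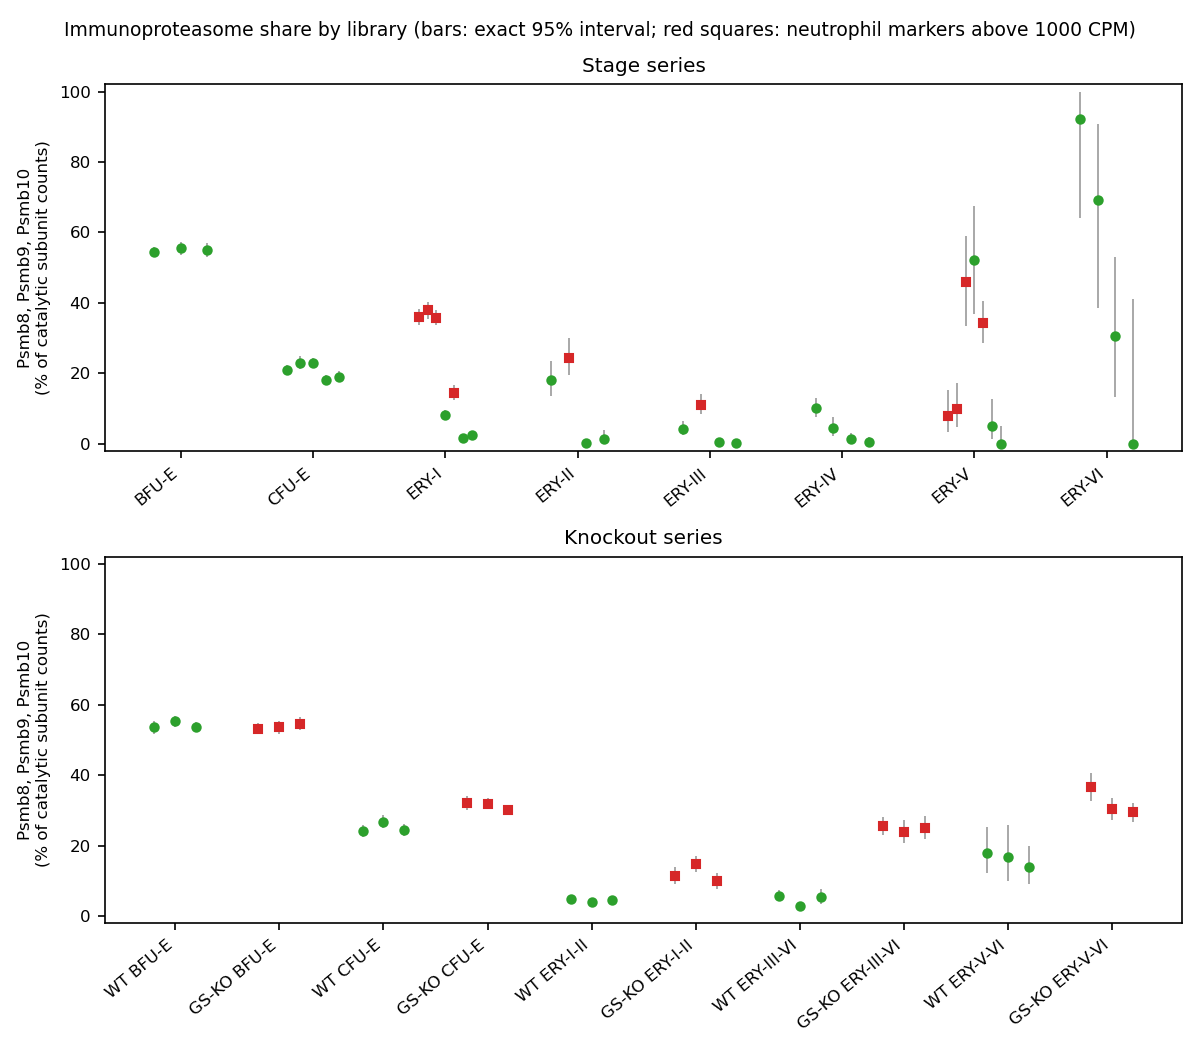
Share of Psmb8, Psmb9 and Psmb10 in the counts of the 6 catalytic genes (percent) for each library of the stage series and the knockout series, with exact 95% binomial intervals. Red squares mark libraries in which the neutrophil markers sum to over 1000 CPM. BFU-E libraries sit near 55%, and GS-KO libraries sit above WT in the later gates.

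The partners of the proteasome were read from lists chosen by function. Of all genes tested 18.2% rose and 19.1% fell into CFU-E, 25.4% and 20.9% into ERY-I, and 20.2% and 25.1% into ERY-II, and the counts below are read against these shares. Of 11 genes for associated factors and assembly, 6 rose and 0 fell into CFU-E, 3 rose and 1 fell into ERY-I, and 4 rose and 2 fell into ERY-II. Fbxo7, a ubiquitin ligase adaptor that also binds Psmf1, rose at these 3 steps by 0.67 ± 0.14, 1.16 ± 0.21 and 1.45 ± 0.23. Zfand5, which stimulates the proteasome, rose into ERY-II (2.23 ± 0.26, adjusted p = 8.19e-05) and again into ERY-IV, from 106 to 197 CPM. Of 7 genes of the NRF1 axis, which drives proteasome transcription, 2 rose and 1 fell into CFU-E and 4 rose and 0 fell into ERY-II. Nfe2l1, which encodes NRF1, fell into CFU-E (-0.65 ± 0.22) and rose into ERY-II (1.28 ± 0.20), where its mean CPM went from 69.5 to 66.1.

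Of 12 genes for ubiquitin, shuttles and activating enzymes, 2 rose and 1 fell into CFU-E, 3 rose and 3 fell into ERY-I, and 3 rose and 3 fell into ERY-II. The counts into ERY-I and ERY-II sit at the shares of all genes. Rad23b, a shuttle that brings tagged proteins to the proteasome, fell into ERY-I (-0.86). Of 17 antigen presentation and interferon genes, 0 rose and 5 fell into CFU-E and 8 rose and 0 fell into ERY-I. Rsad2, an interferon-induced antiviral enzyme, went from 10.7 CPM in CFU-E to 353 in ERY-I and 2040 in ERY-II.

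In the knockout series Glul, the gene read as the target, was lower in GS-KO in every gate. It read 120 to 125 CPM in WT BFU-E and 96.1 to 101 in GS-KO BFU-E, 84.2 to 89.7 and 34.7 to 37.5 in CFU-E, and 104 to 113 and 12.8 to 16.6 in ERY-I-II. The ERY-III-VI libraries read 152 to 167 and 17.0 to 22.5, and in ERY-V-VI 246 to 268 and 22.3 to 24.0. The genotypes overlapped in no gate, and the log2 fold changes were -0.29 ± 0.05, -1.26 ± 0.06, -2.77 ± 0.10, -3.22 ± 0.09 and -4.73 ± 0.09. In BFU-E most of the WT level of Glul remained.

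Genotype ran with other cells' markers. The 9 neutrophil markers summed to 26.7 to 36.4 CPM in WT and 7024 to 7102 in GS-KO BFU-E, 25.9 to 29.0 and 4314 to 4388 in CFU-E, and 108 to 116 and 6183 to 6284 in ERY-I-II. The sums were 252 to 255 and 9923 to 10002 for ERY-III-VI, and for ERY-V-VI 608 to 654 and 13362 to 13528. All 9 had a count in every GS-KO library. The 12 macrophage markers measured 75.0 to 86.7 CPM in WT and 859 to 919 in GS-KO ERY-V-VI, with Cd14 at 0 in WT. Lyz2 averaged 28.9 CPM of the WT sum and 686 of the GS-KO sum. The 6 progenitor markers summed to 12.7 to 14.4 CPM in WT and 64.4 to 71.9 in GS-KO ERY-I-II, 4.54 to 5.17 and 94.2 to 95.04 in ERY-III-VI, and 6.31 to 12.8 and 131 to 141 in ERY-V-VI. Kit, a receptor of progenitors, averaged 4.65 CPM in WT and 58.0 in GS-KO ERY-V-VI. The 10 B cell markers summed to 2.96 to 8.41 CPM in WT and 68.2 to 75.0 in GS-KO ERY-V-VI. At the ERY-V-VI gate globin genes took 19.6% to 19.8% of WT counts and 7.69% to 7.81% of GS-KO counts. The order was reversed earlier: ERY-I-II libraries held 1.38% with WT and 2.94% to 2.96% with GS-KO. ERY-III-VI libraries held 4.71% to 4.76% with WT and 5.69% to 5.93% with GS-KO. The 11 erythroid markers summed to 841 to 854 CPM for WT BFU-E and 1960 to 1981 for GS-KO BFU-E. Genotype and these marker levels cannot be told apart in any gate.

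In BFU-E 0 of 48 members were higher in GS-KO and 8 were lower, where 15.4% of all genes were higher and 8.59% lower. The 8 comprised 3 core genes and 5 regulatory genes with log2 fold changes from -0.19 (Psmd5, ± 0.05, adjusted p = 0.00554) to -0.09 (Psmd7). The count was 5 without WT replicate 1, 2 or 3 or GS-KO replicate 2, and 4 without GS-KO replicate 1. In CFU-E 5 members were higher and 10 lower, where 17.9% of all genes were higher and 11.5% lower. The 5 were Psmb5, Psmb8, Psmb9, Psmb10 and Psme1. Psmb8 read 39.0, 42.5 and 37.7 CPM in WT and 62.5, 66.3 and 57.4 in GS-KO, without overlap (0.63 ± 0.07, adjusted p = 1.62e-08).

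In ERY-I-II most core and regulatory genes were lower in GS-KO. Of 46 members tested, 4 were higher and 28 lower, where 22.9% of all 9954 genes were higher and 17.5% lower. The median was -0.19 against -0.01 over all genes. The 28 comprised 12 core and 16 regulatory genes, from -0.09 (Psmd1 and Psmd4) to -0.43 (Psma5, ± 0.11, adjusted p = 0.000565). Psmb6 averaged 82.0 ± 2.40 CPM (SD, n = 3) in WT and 59.9 ± 3.63 in GS-KO (-0.33 ± 0.08), and Psmc3 averaged 357 ± 1.31 and 285 ± 5.41 (-0.20 ± 0.03). The summed level of members was 6199 to 6219 CPM in WT and 5365 to 5475 in GS-KO. With library totals 3 were higher and 33 lower.

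Psme3 was higher in GS-KO at that gate. It read 403, 418 and 423 CPM in WT and 651, 632 and 651 in GS-KO (0.76 ± 0.03, adjusted p = 2.29e-36). The groups did not overlap. Psmb8, at 1.10, 0.912 and 1.05 CPM in WT, read 5.10, 15.6 and 5.47 in GS-KO (3.22 ± 0.38). Psmb9 was higher (0.90 ± 0.28) and so was Psme4 (0.09 ± 0.03), the latter being -0.03 under library totals.

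In ERY-III-VI 7 members were higher and 11 lower, where 31.4% of all genes were higher and 24.5% lower. The higher ones were Psma6, Psmb8, Psmb9, Psmb10, Psmd6, Psme1 and Psmg1. Psmb8 read 1.25, 0.597 and 2.19 CPM in WT and 24.8, 22.2 and 19.0 in GS-KO (3.99 ± 0.27, adjusted p = 9.31e-19). Psme1 read 41.7, 42.4 and 39.99 in WT and 79.7, 77.7 and 81.6 in GS-KO (0.78 ± 0.09). Psmg1 read 1.67, 1.19 and 1.79 in WT and 5.56, 6.35 and 4.70 in GS-KO (1.68 ± 0.38). None of these 3 genes, picked from those called, overlapped between genotypes, and the share of all genes without overlap was not counted. The lower ones were 9 regulatory genes, Psme3 and Psmf1. Psmf1 read 221, 215 and 215 in WT and 175, 186 and 168 in GS-KO (-0.46 ± 0.05). Psme3 read 960, 954 and 955 against 958, 995 and 982, and its small change of -0.13 ± 0.03 was 0.03 under library totals. Library totals gave 12 higher and 4 lower members (median of all genes 0.21).

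In ERY-V-VI the pool itself differed. The summed level of all members was close, 4159 to 4287 CPM in WT and 4346 to 4411 in GS-KO. Core genes summed to 198 to 218 CPM in WT and 664 to 665 in GS-KO, regulatory genes to 888 to 974 and 1840 to 1844, and activators to 2843 to 2969 and 1636 to 1711. Psme3 held 57.5% to 59.1% of member counts in WT and 27.6% to 28.7% in GS-KO. None of these sums overlapped between genotypes. On the scale of these sums, library totals, the median log2 fold change of all genes was itself 1.44, so higher CPM was common to most genes. The progenitor markers given above were higher in the same GS-KO libraries, and their part in the core and regulatory sums was not tested.

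By test, 9 of 46 members were higher and 10 lower in GS-KO ERY-V-VI, where 22.4% of all genes were higher and 20.5% lower. The 9 comprised 6 core genes and Psmc4, Psmc5 and Psmd14. Psme3 read 2412, 2460 and 2519 CPM in WT and 1253, 1237 and 1198 in GS-KO (-2.30 ± 0.03, adjusted p = 3.78e-18), and -0.9985 under library totals. Psme4 read 399, 381 and 417 against 286, 369 and 336 (-1.56 ± 0.08). Psmd4 read 242, 234 and 213 against 225, 213 and 189 (-1.43 ± 0.08), with overlap, and it did not pass under library totals (-0.13). Psmf1 read 163, 159 and 161 against 178, 155 and 167, which overlapped. Its fold change was -1.25 ± 0.08, while its mean CPM was higher in GS-KO. Mean CPM was also higher in GS-KO for Psma2, Psmd2, Psmd6, Psmd8, Psmd10 and Psmd11, so 7 of the 10 called lower go the other way in CPM.

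With library totals 39 members were higher and 2 lower, and the median of all genes stood at 1.44. Without GS-KO replicate 1 only 8 members passed, and without replicate 2 or 3 of GS-KO 9 passed. Psma1 illustrates the gap: it read 15.9, 22.7 and 29.2 CPM in WT and 66.9, 71.8 and 67.4 in GS-KO, and did not pass with TMM (0.31 ± 0.21, adjusted p = 0.259). Psmb8 read 1.87, 1.92 and 4.23 in WT and 30.4, 27.2 and 26.8 in GS-KO (2.05 ± 0.40, adjusted p = 0.000585). Psmb5 had 1, 0 and 6 counts in WT and 35, 54 and 35 in GS-KO (2.21 ± 0.85, adjusted p = 0.0479), a call lost without any library but WT replicate 3.

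**Figure D5:**
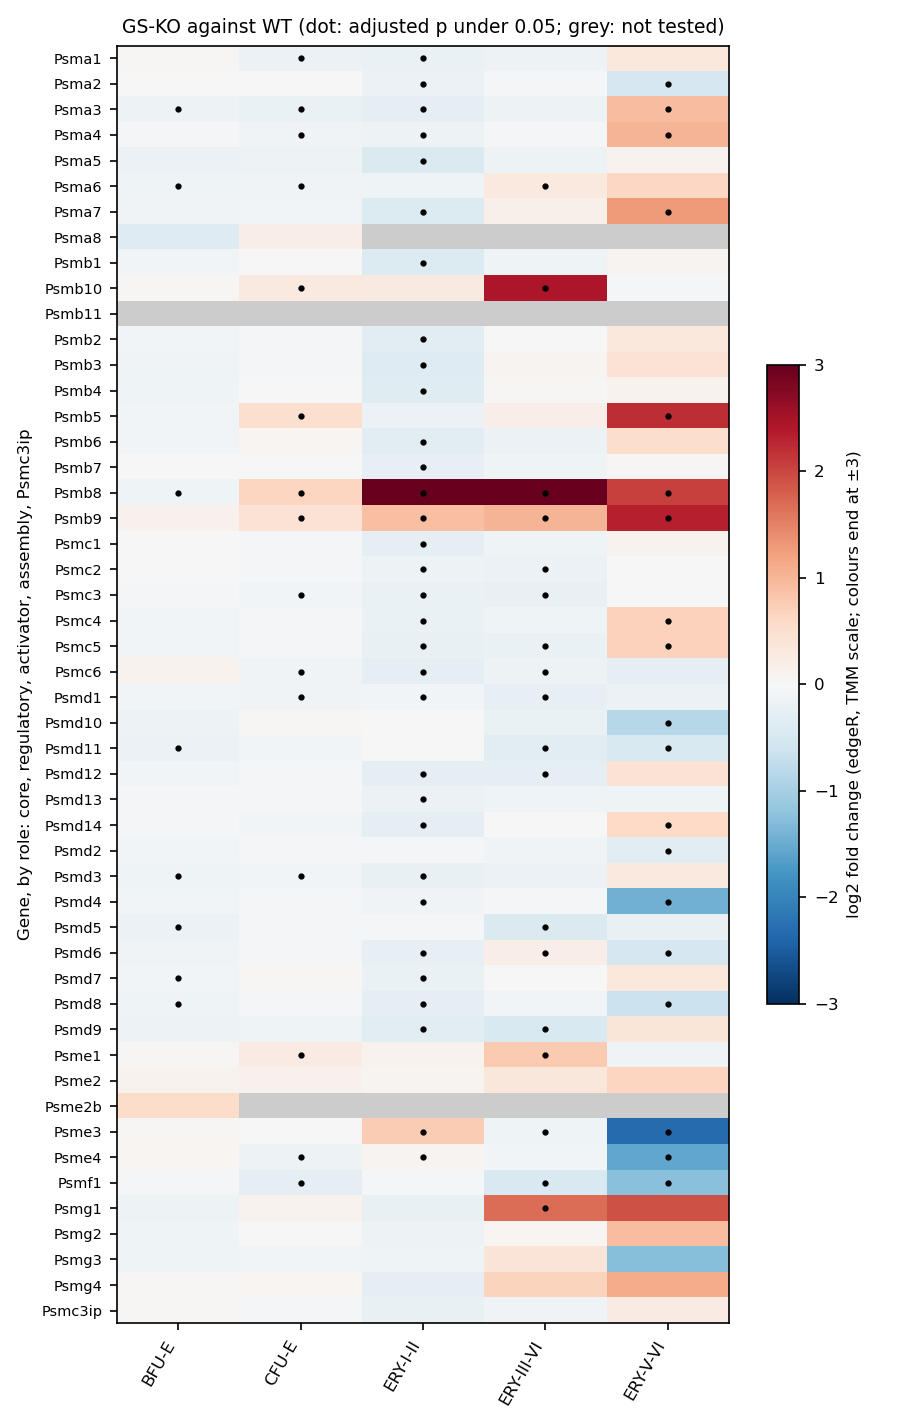
Log2 fold changes of the members (rows, ordered by role) for GS-KO against WT in the 5 gates (columns), with dots for an adjusted p under 0.05. Most core and regulatory genes are below 0 in ERY-I-II, Psmb8 is above 0 from CFU-E on, and Psme3 goes from 0.76 in ERY-I-II to -2.30 in ERY-V-VI.

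GS-KO libraries lay above WT in immunoproteasome share in the 4 gates after BFU-E. The share was 53.5% to 55.2% in WT and 53.1% to 54.6% in GS-KO BFU-E, which overlapped. It was 24.1% to 26.7% and 30.1% to 32.1% in CFU-E, and 4.10% to 4.69% and 9.83% to 14.6% in ERY-I-II. It was 2.75% to 5.61% and 23.8% to 25.6% for ERY-III-VI, and 13.9% to 17.9% and 29.4% to 36.5% in ERY-V-VI. The genotypes did not overlap in these 4 gates. With 3 libraries a side the smallest p of an exact two-sided permutation test is 0.1, so that test could not pass, and no other test of the share was run. The neutrophil and macrophage markers given before were higher in the same GS-KO libraries, and their part in the share was not tested.

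Other genes around the proteasome also differed by genotype. From BFU-E to ERY-V-VI 15.4%, 17.9%, 22.9%, 31.4% and 22.4% of all genes were higher in GS-KO, and 8.59%, 11.5%, 17.5%, 24.5% and 20.5% were lower. Of the 17 antigen presentation and interferon genes 7, 9, 12, 10 and 4 were higher in GS-KO from BFU-E to ERY-V-VI, and 0, 0, 0, 2 and 6 were lower. With 16 of them tested in ERY-V-VI, the 4 higher there are near the share of all genes. Irf1, a transcription factor of the interferon response, was higher by 4.77 ± 0.45 in ERY-III-VI and Nlrc5, which drives antigen presentation genes, by 2.52 ± 0.46. Rsad2 averaged 273 CPM in WT and 997 in GS-KO ERY-I-II (1.99 ± 0.03), and was lower in ERY-V-VI (-2.44 ± 0.03). Of the 11 associated and assembly genes 1, 1, 3, 1 and 3 were higher and 2, 5, 5, 7 and 5 lower. In ERY-V-VI Zfand5 was lower by 1.77 on the log2 scale and Fbxo7 by 1.64, and Uchl5, a ubiquitin hydrolase of the proteasome, was higher (1.29 ± 0.24). Of the 7 NRF1 axis genes 0 or 1 were higher in each gate, and 4 were lower in ERY-V-VI. Some genes called lower there had a higher mean CPM in GS-KO, such as Nfe2l1 (51.5 CPM in WT and 70.4 in GS-KO) and Usp14 (79.7 and 115).

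The genotype effect differed between gates for most members. In a fit of genotype by gate over the 30 libraries, 39 of 47 members tested passed, where 61.2% of all 12051 genes did. The smallest adjusted p-values were those of Psme3 (8.78e-48), Psme4 (7.04e-28), Psmd4 (5.75e-26), Psmf1 (7.55e-21) and Psmb8 (1.64e-17). Psma5, Psmb2, Psmb3, Psmb4, Psmb7, Psmd13, Psme2 and Psmg4 did not pass. Psmc3ip, the gene that only shares the name, averaged 33.7 CPM in BFU-E, 59.7 in CFU-E and 0.14 in ERY-VI, rose into CFU-E (0.97 ± 0.24) and did not pass the interaction (adjusted p = 0.397).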

How the data were processed

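Counts per gene were deposited by the authors as whole numbers for 68 libraries of sorted mouse bone marrow cells. Reads were aligned with STAR 2.5.2b to mm10 and counted with HTSeq, per the submitters' processing notes, from libraries made with a stranded total RNA kit for very low input, per the labels' protocols. The gene annotation and strand setting were not found in the labels or headers, so overlapping genes may share reads. Members and gene lists were chosen with earlier results of these data known.

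Groups followed the labels. Counts were tested with edgeR 4.0.16 (R 4.3.3): filterByExpr with a minimum count of 10 and a minimum total of 15, TMM scaling, quasi-likelihood fits of the groups compared, and Benjamini-Hochberg adjustment over all genes tested at 0.05. The genotype by gate term was fitted over all 30 knockout-series libraries. The SE is the log2 fold change divided by the square root of F. CPM were taken over library totals, and per-kilobase levels over the union exon length in GENCODE M21 (GRCm38). Fold changes were given for Psmb5 to Psmb10 and Psme1 to Psme4, for the 3 highest and 3 lowest among members called in each comparison, and for up to 3 called genes of each pathway list; fold changes of other members were chosen after their values were seen. The code was tested on simulated data.

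Alternatives were library totals, DESeq2 1.42.0, no low-count filter, a replicate block, libraries of 1 sex, summed Y-positive triplicates and leaving out each library. Leaving out libraries rich in neutrophil markers was added after seeing the data. Same-numbered libraries deviated together (lowest pairwise r over the pairs) from CFU-E to ERY-I (0.307), ERY-II to ERY-III (0.604) and ERY-III to ERY-IV (0.342); the numbers come from the labels and were taken to pair those libraries. In the first of these the numbers coincide with sex. The values of 1 gene of the pathway lists are not reported here.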

Additional observations from a re-analysis of the deposited data

Results flagged for a closer look

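Members summed by role and 12 single genes were checked for a library standing apart from its group, in 125 groups of 4 or more libraries. Chance alone would mark about 1 group in 20, and 10 were marked. In ERY-III replicate 3 the summed level of the members was 3985 CPM, against 3510 to 3581 in the others, and the summed core level was 693.8 CPM, against 576.3 to 594.9. Psme2 stood at 17.68 CPM in the same library, against 11.72 to 12.36. In CFU-E replicate 4 the assembly genes summed to 392.3 CPM, against 262.7 to 297.9, and in CFU-E replicate 5 Psme1 stood at 229.9 CPM, against 257.4 to 261.1.

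Low-count immunoproteasome genes stood apart in 3 libraries. Psmb8 read 5.285 CPM in ERY-III replicate 2, against 0 to 0.8425, in a library whose neutrophil markers passed 1000 CPM. Psmb9 read 10.9 CPM in ERY-V replicate 3, against 0 to 3.751. Psmb10 read 0.56 CPM in ERY-VI replicate 3 and 0 in the other ERY-VI libraries. With the others at 0, any read at all would have marked that library. In ERY-V replicate 7 Psme2 read 23.64 CPM, against 3.369 to 11.25, and Psmd4 read 461.7 CPM, against 182.5 to 302.8.

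The effect of the GS-KO label differed between gates by the interaction test for 39 of 47 members, led by Psme3. The same test passed for 61.2% of all 12051 genes.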

How the results depend on the processing

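Of 187 results for single genes, 103 kept direction and call under every alternative, and of 272 alternative counts of members called, 221 lay within 1.5 times of the main count. Scaling to library totals reversed 9 single values: Psme4 (-0.39) and Psmd10 (-0.081) from ERY-I to ERY-II, Psme3 from ERY-V to ERY-VI (-0.39), Psmb7 from WT CFU-E to ERY-I-II (-0.076), Psme4 (-0.044) and Psmf1 (-0.0037) from WT ERY-I-II to ERY-III-VI, Psme1 from WT ERY-III-VI to ERY-V-VI (-0.23), and GS-KO against WT Psme4 in ERY-I-II (-0.030) and Psme3 in ERY-III-VI (0.034). It gave 32 members called from CFU-E to ERY-I in place of 16, 41 in place of 18 into ERY-II, 5 in place of 1 into ERY-IV, 7 in place of 4 into ERY-V, 15 in place of 4 into ERY-VI, 38 in place of 21 into WT ERY-V-VI and 41 in place of 19 for GS-KO in ERY-V-VI. The cause was not tested.

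The replicate block gave 30 members into ERY-I, 2 into ERY-III, 6 into ERY-IV and 14 into ERY-V. In the other comparisons the block moved the count by less than 1.5 times, and only equal replicate numbers were tried as pairs. Among Xist-positive libraries neutrophil markers were highest in replicate 5 of ERY-I and ERY-V and replicate 2 of ERY-II, ERY-III, ERY-IV and ERY-VI, and a pairing across such unequal numbers was not tested. Summing triplicates gave 0 from BFU-E to CFU-E in place of 36, 10 into ERY-I and 0 into ERY-VI, with fewer libraries in each fit. DESeq2 gave 7 into ERY-VI and 2 in place of 8 for GS-KO in BFU-E. No filter gave 7 into ERY-V. The Y-positive libraries alone gave 42 into ERY-I, and the Xist-positive ones 0 into ERY-VI. Without the libraries rich in neutrophil markers 0 passed into ERY-IV, 8 into ERY-V and 0 into ERY-VI.

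Leaving out each library in turn gave 18 to 38 members from BFU-E to CFU-E, 11 to 18 into ERY-I, 12 to 17 into ERY-II, 0 to 1 into ERY-IV, 1 to 7 into ERY-V and 0 to 5 into ERY-VI. For GS-KO it gave 4 to 10 in BFU-E and 8 to 20 in ERY-V-VI. In ERY-VI 3785 or more member counts per library were mostly Psme3, so low members could not be followed there.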
